A study of Mus musculus with 2 samples.

Results

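The Mir378 genes are 4 microRNA genes of the mouse, Mir378a, Mir378b, Mir378c and Mir378d, and all 4 were found by symbol among the 2202 microRNA genes of the deposited tables. They were taken by name and not by their level. The libraries came from the gastrocnemius, the large calf muscle, of male B6CASTF1/J mice, adults aged 18 to 20 months, bought from The Jackson Laboratory per the labels. B6CASTF1/J is the first-generation hybrid of C57BL/6J and CAST/EiJ. No treatment, transgene, second age or second tissue was named. Small RNA with inserts under 30 nt was sequenced in 2 libraries, biological replicates 1 and 2 of 1 group, from separate biosamples. Whether the biosamples came from separate animals is not said in the labels, so spreads and p-values measure only these samples and may be technical.

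A microRNA is cut from a hairpin precursor, and its seed, bases 2 to 8 of the mature strand, is the main part that pairs with target messenger RNA. Mir378a lies within Ppargc1b, the gene of PGC-1beta, a coactivator of nuclear receptors that drives mitochondrial and fatty acid oxidation genes in muscle and brown fat. The products of Mir378a are known as regulators of energy use that act against the host gene's programme, with the carnitine acetyltransferase Crat and the Mediator subunit Med13 as targets, and in myoblasts they repress MyoR, an inhibitor of muscle differentiation.

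RefSeq's microRNA table on the GRCm38.p6 assembly matched 3 of the 4 genes, Mir378b, Mir378c and Mir378d, which show how close the copies are to each other. Their mature strands are given here 5′ to 3′, with the seed in capitals.
miR-378b: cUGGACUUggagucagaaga
miR-378c: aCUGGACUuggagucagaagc
miR-378d: aCUGGCCUuggagucagaaggu
The 3 strands are of 20, 21 and 22 bases. miR-378b and miR-378c share a run of 19 bases, which starts at base 1 of miR-378b and at base 2 of miR-378c. Their seeds are therefore the same stretch shifted by 1 base. Counted from 1 at the 5′ end of miR-378c, they differ by C21A alone over the 20 aligned bases. miR-378d differs from miR-378c by A6C, which lies in the seed, and by C21G, and is identical at 19 of 21 aligned bases.

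The precursors place these strands on different arms, as their sequences show, with the mature strand in capitals.
Mir378b: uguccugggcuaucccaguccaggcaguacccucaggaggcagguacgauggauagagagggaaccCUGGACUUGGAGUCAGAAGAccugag
Mir378c: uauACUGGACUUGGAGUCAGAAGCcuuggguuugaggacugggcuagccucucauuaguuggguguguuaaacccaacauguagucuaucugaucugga
Mir378d: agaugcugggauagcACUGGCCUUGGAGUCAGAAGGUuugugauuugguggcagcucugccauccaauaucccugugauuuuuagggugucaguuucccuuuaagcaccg
The mature strand begins at base 67 of the 92 bases of Mir378b, on the 3′ side. It begins at base 4 of the 99 bases of Mir378c and at base 16 of the 110 bases of Mir378d, on the 5′ side of both. Folded with RNAfold, the predicted minimum free energy was -31.1 kcal/mol for Mir378b, -27.0 for Mir378c and -35.0 for Mir378d. Per base these are -0.338, -0.273 and -0.318 kcal/mol, against a median of -0.407 over the 997 distinct hairpins of the table. All 3 were thus folded less stably per base than the median hairpin, and 6.82% of hairpins were less stable than Mir378c. In the predicted folds 15 bases of miR-378b, 15 of miR-378c and 13 of miR-378d were paired, the last being 59.1% of its length against a median of 81.0% over 1635 mature strands.

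The genes lie on 4 chromosomes of the mm10 assembly, with coordinates 1-based from the GENCODE M21 annotation. Mir378a (ENSMUSG00000105200.1) lies at chr18:61397835-61397900, minus strand, in an intron of Ppargc1b on the same strand. Mir378b (ENSMUSG00000092985.1) lies at chr11:88352773-88352864, plus strand, opposite to an intron of Msi2. Mir378c (ENSMUSG00000099036.1) lies at chr14:46954830-46954928, minus strand, opposite to an intron of Samd4. Mir378d (ENSMUSG00000098756.1) lies at chr10:126710282-126710391, minus strand, outside genes, 158036 bases from the nearest protein-coding gene, Atp23. Mir378a is thus the only member with a host gene on its own strand in this annotation.

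**Figure D1:**
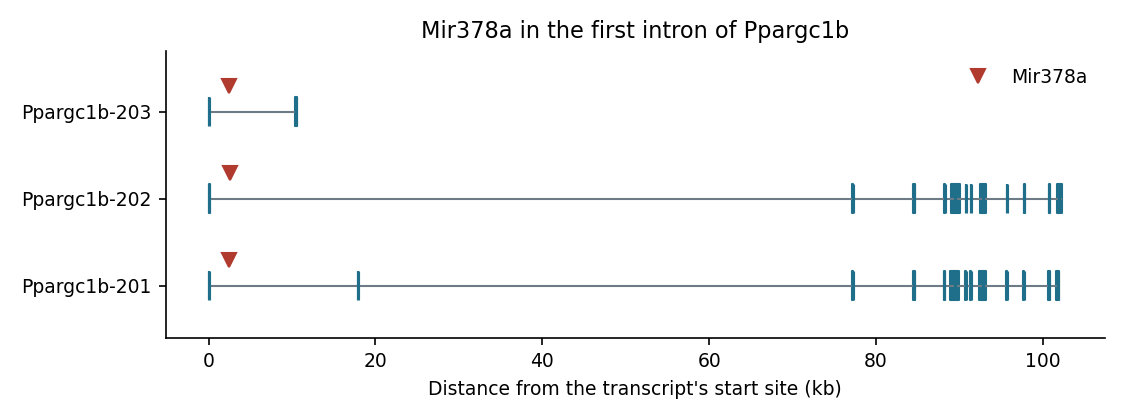
Map of the 3 annotated transcripts of Ppargc1b against the distance from each transcript's start site in kb. Bars are exons, with short ones drawn at a minimum width, thin lines are introns, and the triangle marks Mir378a, which lies in the first intron of each transcript.

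In all 3 annotated Ppargc1b transcripts Mir378a lay in intron 1, at 2389 bases after the first exon. It began 2500 bases from the start site of Ppargc1b-201 and 2531 bases from that of Ppargc1b-202. The intron that holds it was 17766 bases long in Ppargc1b-201, 76981 in Ppargc1b-202 and 10203 in Ppargc1b-203. Apart from Mir378a and a gene model on the other strand, Gm25301, no microRNA gene of the tables lay in Ppargc1b, and 0 lay in its relatives Ppargc1a and Pprc1. Messenger RNA was not part of these libraries, so the level of Ppargc1b itself was not measured here.

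Levels are given in CPM, counts on the gene's own strand scaled to a total of 1000000 assigned to microRNA genes. Replicate 1 held 4442692 such counts and replicate 2 held 2156222, and a count of 0 allowed up to 0.675 and 1.39 CPM (3 counts). Intervals and such limits cover the counting error of reads only. Reads of PCR products are not independent molecules, so the intervals may be too narrow for molecules. A read spans the whole mature strand, so levels were compared between genes without dividing by length. The order of the 4 genes was the same in both libraries per annotated base.

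Mir378a was by far the highest member. It held 710764 counts (159985 CPM) in replicate 1 and 400484 counts (185734 CPM) in replicate 2, or 172860 ± 18207 CPM (SD, n = 2). Its share of assigned counts was 15.998% in replicate 1, with a Wilson 95% interval of 15.96 to 16.03. In replicate 2 the share was 18.57%, with an interval of 18.52 to 18.63. Of all reads of the tables, unassigned ones included, it took 2.50% and 3.68%. In bulk tissue, fewer cells of a type and less RNA per cell cannot be told apart.

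Mir378d was the next, at 452 counts (101.7 CPM) in replicate 1 and 259 counts (120 CPM) in replicate 2, or 111 ± 13.0 CPM. Mir378c held 387 counts (87.1 CPM) and 126 counts (58.4 CPM), or 72.8 ± 20.3 CPM. Mir378b was the lowest, at 94 counts (21.2 CPM) and 20 counts (9.28 CPM), or 15.2 ± 8.40 CPM. All 4 genes were above the limit of a count of 0 in both libraries, and the levels of no 2 members overlapped. With 2 libraries an exact two-sided test of such a gap over samples, by flipping signs, gives a p of 0.5 at the lowest. Within each library Mir378d stood above Mir378c by a count ratio of 1.17 (exact 95% counting interval 1.02 to 1.34) in replicate 1. The ratio was 2.06 (1.66 to 2.56) in replicate 2. Mir378c stood above Mir378b by 4.12 (3.28 to 5.21) and 6.30 (3.91 to 10.7). The limit of a count of 0 does not cover reads of Mir378a placed at another member. Whether the counts of Mir378b, Mir378c and Mir378d hold such reads was not tested.

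**Figure D2:**
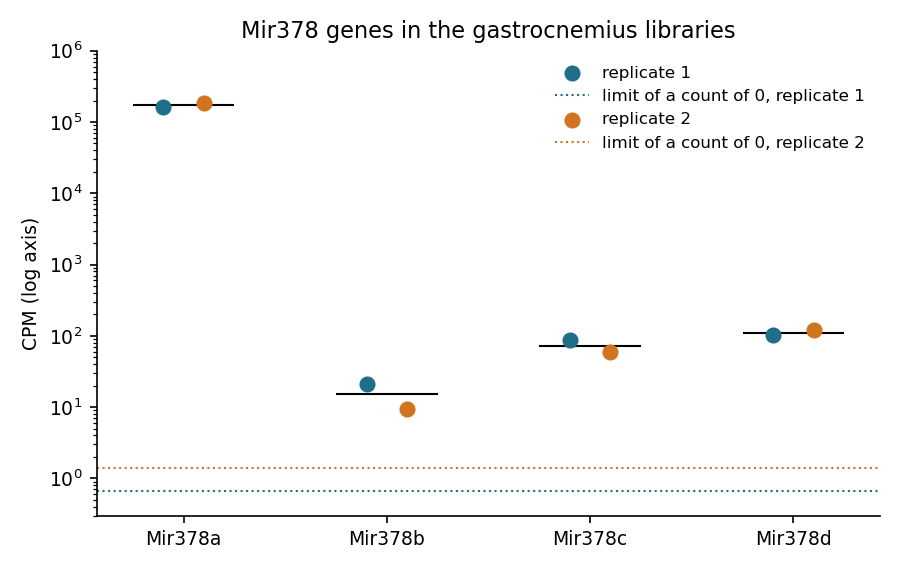
Level of each Mir378 gene in CPM on a log axis, with 1 point per library, a black bar at the mean and dotted lines at the limit that a count of 0 allows. Mir378a stands at 159985 and 185734 CPM and the others between 9.28 and 120 CPM.

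Mir378a outnumbered Mir378d by 1572 counts to 1 in replicate 1 (1434 to 1728) and by 1546 to 1 in replicate 2 (1369 to 1753). These intervals overlap, so the proportion of Mir378a to Mir378d was not distinguishable between the libraries at this depth. Mir378a outnumbered Mir378c by 1837 to 1 (1662 to 2034) and by 3178 to 1 (2669 to 3816), and Mir378b by 7561 to 1 (6179 to 9357) and by 20024 to 1 (12965 to 32783). For Mir378c and Mir378b the intervals of the libraries do not overlap. Mir378b, Mir378c and Mir378d together made up 0.131% of the counts of the 4 genes in replicate 1 and 0.101% in replicate 2.

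Beside all detected microRNA genes Mir378d and Mir378c stood in the middle range and Mir378b lower. Of 324 microRNA genes at 2 CPM or more in both libraries, 132 were above Mir378d in replicate 1 and 118 in replicate 2, and 136 and 151 were above Mir378c. The median of the 324 was 51.0 CPM in replicate 1 and 48.0 CPM in replicate 2, below Mir378c and Mir378d in both libraries. Mir378b was below that median in both, with 204 and 251 genes above it.

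Among reads placed at 1 locus, Mir378a ranked first of all 2202 genes in each library, with a lead of unequal width. Genes with several copies could rank higher with multimapping reads, which were 73.8% and 70.2% of all reads and are not part of these counts. In replicate 1 the next gene was Mir22, a microRNA gene abundant in heart and skeletal muscle, at 149674 CPM, so that Mir378a stood at 1.07 times Mir22 (1.065 to 1.072). In replicate 2 Mir22 held 34378 CPM and Mir378a stood at 5.40 times its level. The next gene there was Mir206, the microRNA gene of skeletal muscle, at 61540 CPM, and Mir378a stood at 3.02 times its level. Mir22 was lower in replicate 2 by a log2 ratio of -2.03, a far larger difference than that of Mir378a.

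**Figure D3:**
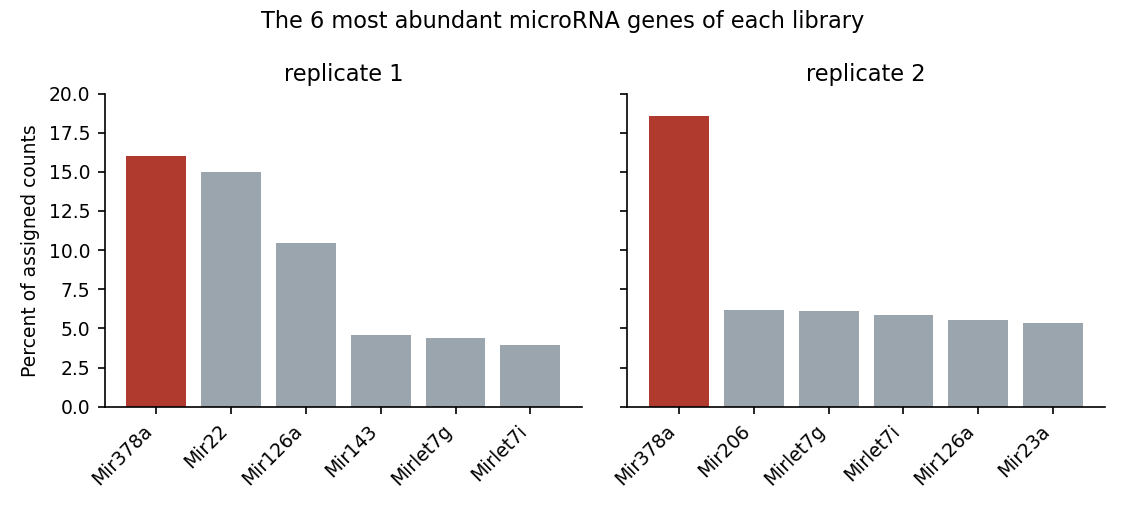
Percent of assigned counts of the 6 most abundant microRNA genes of each library, Mir378a in red. Mir378a is first in both, close to Mir22 in replicate 1 and at 3.02 times the next gene in replicate 2.

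Among microRNA genes inside introns of a gene on their strand, Mir378a supplied 37.7% of counts in replicate 1 and 36.9% in replicate 2. The class held 793 genes and took 42.4% and 50.3% of assigned counts. Its next members were Mirlet7g in Wdr82, a let-7 gene, at 52535 ± 12077 CPM, Mir23b at 37373 ± 10560 CPM and Mir26b in Ctdsp1 at 35380 ± 10006 CPM. Mir378a stood at 3.64 times Mirlet7g in replicate 1 and at 3.04 times in replicate 2.

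The level of Mir378a could be read only with strand. Gm25301, a microRNA gene model of 113 bases on the plus strand at chr18:61397813-61397925, covers all 66 bases of Mir378a. In the counts without strand Mir378a had 0 in both libraries. On its own strand it had 710764 and 400484, and on the opposite strand 1 and 0. Gm25301 had 2 and 0 counts on its own strand and 710764 and 400484 on the opposite one, the same numbers as Mir378a on its own. The reads of this locus were therefore almost wholly from the Mir378a strand.

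Without strand the same reads were kept apart as ambiguous between genes. Mir378a made up 55.0% of the 1292884 ambiguous reads of replicate 1 and 69.4% of the 576791 of replicate 2. In all, 64 microRNA genes overlap another on the other strand, Mir126a and Mir191 being the next in level. Without strand the 4 Mir378 genes took 0.0296% and 0.0256% of assigned counts. Mir378b, Mir378c and Mir378d overlap no microRNA gene, had the same counts with and without strand, and had 0 on the opposite strand.

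Multimapping reads were kept apart from the gene counts, and the copies bear on that. Mir378a and Mir378c share a stretch of 20 bases, so 2 of the 4 genes had such a partner. With 18 bases Mir378b shared with both, and Mir378d shared 16 bases only with the gene model Gm27881. The multimapping reads were 73.8% of all reads in replicate 1 and 70.2% in replicate 2, or 29.5 and 19.0 times the counts of Mir378a. How many of them came from the Mir378 genes was not tested, so the levels of all 4 genes, and their ranks among other genes, cover only reads placed at 1 locus. Nor do the tables separate the mature strands of a gene.

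Replicate 2 against replicate 1 asks how steady each member was between samples with the same labels. Ratios are log2 of CPM + 1 with edgeR's TMM scaling, and a two-sided exact binomial test, adjusted by Benjamini-Hochberg over 380 genes, compares these libraries, not conditions, with counting error only. At an adjusted p under 0.05 it called 61.8% of all genes tested, 30.3% as higher in replicate 2 and 31.6% as higher in replicate 1. Of the 4 Mir378 genes 2 were called higher in replicate 2 and 2 higher in replicate 1, with a median log2 ratio of -0.08 against 0.02 over all genes tested.

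Mir378a was higher in replicate 2 by 0.31 (95% counting interval 0.303 to 0.314), a factor of 1.24, and its binomial p was too small to be held as a number above 0. Mir378d went with it at 0.33 (0.11 to 0.56, adjusted p = 0.00679, exact binomial test). That call was lost with plain totals (0.24, adjusted p = 0.0556) and with DESeq2's size factors (0.19, adjusted p = 0.129), both under the same exact test. Mir378c was lower in replicate 2, at -0.48 (-0.78 to -0.19, adjusted p = 0.00204, exact test), as was Mir378b at -1.02 (-1.87 to -0.39, adjusted p = 0.00234, exact test). These directions were the same under all 8 other settings run for each member. Those that added 0.1 or 5 CPM in place of 1 could not have changed a direction. The call of Mir378c was lost when scaled to all reads (-0.22, adjusted p = 0.164, exact test).

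The difference in Mir378a was small beside that of other abundant genes. Among the 20 most abundant genes the log2 ratios ran from -2.03 for Mir22 to 2.47 for Mir206, and 5 were nearer to 0 than Mir378a. Its coefficient of variation over the 2 libraries was 10.5%, against a median of 27.9% and a range of 1.22% to 95.9%. Over all 380 genes tested, 24.5% had a ratio nearer to 0. With Mir22 taken out of the totals, a choice made after seeing the data, Mir378a took 18.8% and 19.2% of the rest and its log2 ratio was 0.03.

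**Figure D4:**
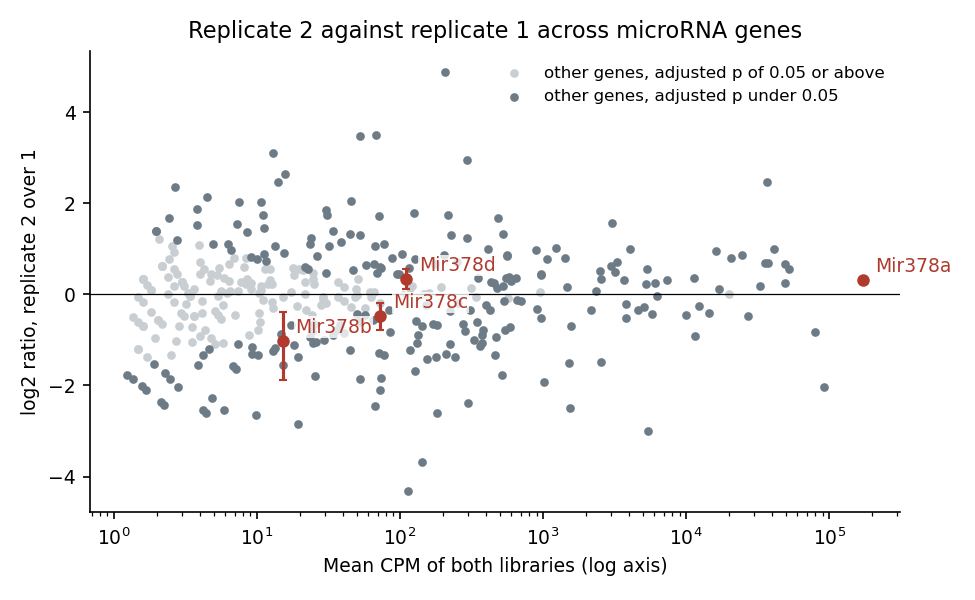
Log2 ratio of replicate 2 over replicate 1 against mean CPM on a log axis for the 380 genes tested, with the Mir378 genes in red and their 95% counting intervals. Mir378a and Mir378d lie a little above 0 with the scaling used here, Mir378c and Mir378b below it.

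The abundant genes most like Mir378a were sought as the 5 of the 20 with the nearest log2 ratio, which with 2 libraries says only that they shifted alike. They were Mir143 (log2 ratio 0.26), Mir99a (0.17), Mir100 (0.12), Mirlet7g (0.57) and Mir10b (0.01). Mir143, known from smooth muscle, held 46025 and 51555 CPM, and its ratio differed from that of Mir378a by -0.05. Mir99a held 32139 and 33978 CPM.

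MicroRNA genes tied to PGC-1 and energy metabolism, Mir378a among them, were described as a list of 20 names, of which 19 were found by symbol in the tables. At 2 CPM or more in both libraries 17 were detected. Of 17 tested, 7 were higher in replicate 2, 7 higher in replicate 1 and 3 were not past the threshold. The calls over all genes tested were 30.3% for higher in replicate 2 and 31.6% for replicate 1. The list had a median log2 ratio of 0.08 against 0.02 over all genes tested. Without Mir378a, 16 of its genes were tested, with 6 higher in replicate 2, 7 higher in replicate 1 and a median of -0.09. The list took 22.1% of counts in replicate 1 and 26.4% in replicate 2, and 6.12% and 7.84% without Mir378a.

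After Mir378a the most abundant members of the list were Mir23a, Mir29a and Mir149. PGC-1alpha is the better known relative of the host gene's product. Mir23a, reported to repress PGC-1alpha, was at 28833 CPM in replicate 1 against 53564 CPM in replicate 2 (log2 ratio 0.99). Mir149, in an intron of Gpc1, held 13702 and 10731 CPM (-0.26), and Mir29a, better known as a regulator of collagen genes, held 17002 and 12074 CPM (-0.40). Mir23a was thus higher in replicate 2, and Mir149 and Mir29a higher in replicate 1. Mir34a, which acts on Sirt1, held 500.1 and 597.8 CPM (0.35). Mir378a exceeded each of these in both libraries.

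The other microRNA genes carried by metabolic host genes stood far lower. Mir107, in Pank1, a pantothenate kinase gene of coenzyme A synthesis, was at 104 CPM in replicate 1 against 327 CPM in replicate 2 (log2 ratio 1.74). Mir103-2, in Pank2, held 7.43 and 7.42 CPM (0.08, adjusted p = 0.916, exact binomial test), and Mir103-1, in Pank3, had 3 counts in each library. Mir33, in the sterol regulator gene Srebf2, had 12 and 7 counts (0.27, adjusted p = 0.703, exact test). The precursors of Mir103-1 and Mir103-2 share a run of 27 bases, and how many of the multimapping reads came from them was not tested.

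All 3 microRNA genes of myosin gene introns in the list were called higher in replicate 2, as were 30.3% of all genes tested. Mir499, in Myh7b, held 70.9 and 518 CPM (2.95), and Mir208b was at 34.0 and 108 CPM in the slow myosin gene Myh7 (1.73). Mir208a, hosted by Myh6, had 2.03 and then 23.7 CPM (3.10). Mir378a shifted by 0.31 between the same libraries. The lowest ratios were those of Mir1a-1 (-1.25), Mir1a-2 (-1.07), a pair of muscle genes, and Mir210 (-1.07), known from hypoxia. The precursors of Mir1a-1 and Mir1a-2 share a run of 28 bases, so their levels carry the same limit. Mir181a-2 (-0.94) and Mir181a-1 (-0.78) were also higher in replicate 1, among reads placed at 1 locus. Whether this pair loses reads to multimapping was not tested. Mir494 had 26 and 6 counts and did not pass (-0.78, adjusted p = 0.246, exact test), and Mir761 had 0 and 3 counts.

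**Figure D5:**
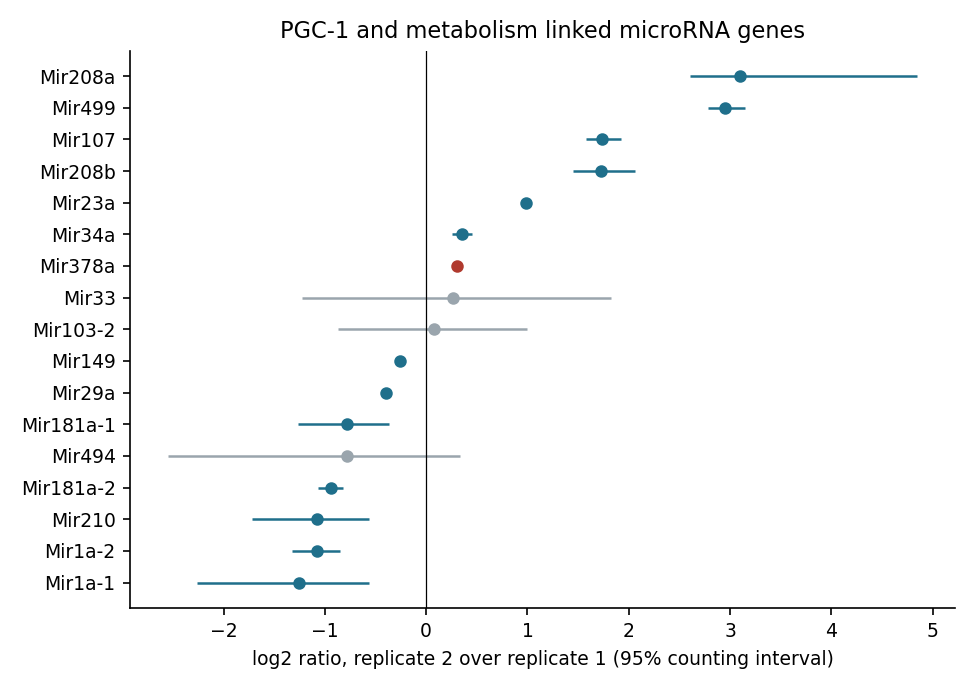
Log2 ratio of replicate 2 over replicate 1 with its 95% counting interval for the 17 tested genes of the list tied to PGC-1 and energy metabolism. Mir378a is red, other genes past the threshold are blue and genes that did not pass are grey, and 7 genes lie above 0 and 7 below it past the threshold.

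Skeletal muscle genes were listed for the labelled tissue with earlier results of these data known, and all 9 had counts in both libraries. Their summed share was 1.64% in replicate 1 and 6.57% in replicate 2, with Mir206 at 11810 and 61540 CPM. Without Mir206, a choice made after seeing the data, it was 0.460% and 0.416%, and 6 of the 9 genes had a higher CPM in replicate 1. These shares hold only reads placed at 1 locus. The precursors of Mir1a-1 and Mir1a-2, both on the list, share a run of 28 bases. How many multimapping reads came from the 9 genes was not tested. By the exact binomial test 3 of the 9 were called higher in replicate 2 and 4 higher in replicate 1, with a median log2 ratio of -0.30. Over all genes tested 30.3% were called higher in replicate 2 and 31.6% higher in replicate 1, with a median of 0.02. Of the 643 microRNA genes with counts, 339 had a higher CPM in replicate 1. Other cell types were also represented. The endothelial gene Mir126a took 10.4% and 5.54%, and the mural genes Mir143 and Mir145a 4.88% and 5.68%. The erythroid genes Mir451a and Mir144 took 0.0777% and 0.0109%. The leukocyte genes Mir150, Mir155 and Mir142 together took 0.212% and 0.350%. Of these, Mir150 (log2 ratio 0.80) and Mir155 (1.02) were higher in replicate 2 and Mir142 (-0.69) was lower. The liver gene Mir122 took 0.00133% and 0.0396%. None of these markers, that of liver included, was at 0 in both libraries, so having counts does not check the tissue. As a share of assigned counts Mir378a stood in replicate 2 at 1.16 times its share in replicate 1. The same ratio was 4.00 for the skeletal muscle list, 0.904 for that list without Mir206, 0.530 for the endothelial gene and 1.16 for the mural genes. The part of these shares in the ratios of the Mir378 genes was not tested.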

How the data were processed

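Values are raw counts of reads on microRNA genes, deposited by the authors as a table for each library, with mm10 and GENCODE M21 as assembly and annotation per the deposited readmes. Neither aligner nor read counter is named in the sources used here. Judging by the values, the 3 columns hold unstranded, same-strand and opposite-strand counts, and the same-strand ones were used. Reads in no gene (unmapped, multimapping, or outside microRNA genes) were 84.3% and 80.2% of each table and were kept out of totals and tests.

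CPM used assigned totals. Ratios used CPM + 1 and TMM (edgeR 4.0.16, over genes with 10 or more summed counts). The exact binomial test covered those genes at an adjusted p of 0.05. It was checked on simulated data that held counting error only, so its error rate between real libraries was not checked. Hairpins were folded with RNAfold 2.7.2. DESeq2 1.42.0 gave alternative size factors. R 4.3.3, Python 3.11.15 and scipy 1.17.1 were used. Shared stretches were exact runs in GENCODE transcripts. A microRNA gene that overlaps any exon of another gene on its strand was not counted as intronic.

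Members, lists and tests were chosen with earlier results of these data known. Named genes were the members, the gene opposite to one, the PGC-1 list, the 5 most abundant genes and the 5 of the 20 most abundant nearest in ratio to Mir378a. Genes named outside this rule (the other leading intronic and overlapping genes, neighbours and markers) serve as context. With 1 group there was no contrast, batch or pairing, and a test with replicates on each side could not be run.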

Additional observations from a re-analysis of the deposited data

How the results depend on the processing

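No paired analysis was possible because there is 1 group and no contrast between groups. The level of Mir378a was 0 with the counts without strand, 30936 when scaled to 1000000 of all reads and 209277 when scaled to 1000000 assigned counts without its own. Its level ran from 159985 to 185734 CPM over single libraries, the share of the 4 genes from 16.02% to 18.6%, and the ratio of Mir378a to Mir22, with a mean of 3.24, from 1.07 to 5.40. Without replicate 1 the last is thus 5.40 and without replicate 2 it is 1.07. Without strand that ratio was 0 and the share of the 4 genes 0.0276%, because reads of Mir378a then count as ambiguous. Of all reads the 4 genes took 3.10%. On the opposite strand 0 of the 4 genes had counts in both libraries, and with 16 shared bases all 4 had a partner.

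The log2 ratio of Mir378a ran from 0.03 (totals without Mir22) to 0.56 (all reads), above 0 and past the threshold under all 8 other settings. That of Mir378b ran from -1.29 to -0.60, past the threshold in all 8. That of Mir378c ran from -0.75 to -0.22, past it in 7, and that of Mir378d from 0.06 to 0.55, past it in 4 of 8. For each member, the settings that added 0.1 or 5 CPM in place of 1 changed only the size of the ratio. They could alter neither the call nor its direction. Apart from them, Mir378d passed only with totals without Mir378a and with all reads. The number of genes that differed ran from 190 to 234 over the alternatives, against 235. The 190 came with a filter of 100 summed counts, where fewer genes were tested, so these numbers are not shares. DESeq2's size factors moved the median ratio of all genes by -0.12, TMM over all genes by -0.13 and totals without Mir22 by -0.24. With the last, 82 genes were higher in replicate 2 and 150 in replicate 1, in place of 115 and 120. Leaving out a library gives no ratio between libraries. Totals without Mir22 and TMM over all genes were chosen after seeing the data. At 20 counts in replicate 2, Mir378b is limited by depth.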
